A study of Mus musculus with 6 samples.

Results

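The genes described here are those of the mouse major histocompatibility complex (MHC) whose symbols start with H2-. They were found by symbol in the annotation of the array, and 37 of its 35556 probe sets carried at least 1 such symbol. By symbol, 27 of these were class I genes and 9 were class II genes (H2-A, H2-E, H2-O and H2-DM). The last, H2-Ke6, encodes a steroid dehydrogenase that lies in the complex and is no MHC molecule, so it was kept apart from both classes. A single symbol was given for 29 of the 37, and 8 carried several symbols and cannot be assigned to 1 gene.

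RNA was taken from splenic natural killer (NK) cells of C57Bl/6 mice aged 8 to 12 weeks, sorted as YFP+, CD27+, NK1.1+ and CD3-, and each sample was hybridised to its own array. Of the 6 arrays, 3 carry the label 15a/16-1FKO (hereafter knockout) and 3 the label Ctrl. Both genotypes were sorted as YFP+, so the sort itself is shared by knockout and Ctrl cells, and the sources used here do not give the driver of YFP or of the deletion. The submitters describe the 3 arrays per genotype as technical replicates, so p-values measure only the spread between these arrays. Sex-linked transcripts differed widely between arrays of 1 genotype, where repeats of 1 RNA sample would have like levels. Xist, made from the inactive X chromosome, stood at 7.56, 8.58 and 8.84 in knockout arrays, against 9.65, 3.89 and 8.86 in Ctrl arrays. Eif2s3y, a gene of the Y chromosome, ranged from 6.18 to 7.88 in knockout arrays and from 2.33 to 7.95 in Ctrl arrays. The number of mice behind each array is not stated in the labels, and n counts arrays throughout. Comparing the genotypes addresses the effect of deleting the microRNAs 15a and 16-1 on gene expression in these cells, and the study's title names c-Myb as the target of interest.

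Class I molecules are heavy chains that pair with beta-2-microglobulin and display peptides from inside the cell. They matter to NK cells in a particular way, because NK inhibitory receptors of the Ly49 family and the CD94/NKG2A receptor bind class I molecules and restrain killing of cells that display them. Class II molecules are pairs of alpha and beta chains that present peptides from endocytosed material, and in mouse spleen they are carried mainly by B cells, dendritic cells and macrophages. The genes of both classes lie together on mouse chromosome 17, and of the 43 gene identifiers that the 37 probe sets carried, 42 were found in the RefSeq gene table, all on that chromosome. Of these, 5 are annotated as pseudogenes (H2-K2, H2-Q5, H2-T10, H2-Bl and H2-Ea).

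The mature microRNAs of the genes Mir15a and Mir16-1, which the knockout label names, share a seed, the stretch that pairs with target transcripts. They are shown because they define the comparison, and their levels were not examined here. Capitals mark the seed, bases 2 to 8 (RefSeq, GRCm38.p6, chromosome 14, minus strand).
mmu-miR-15a-5p: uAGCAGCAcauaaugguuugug
mmu-miR-16-5p: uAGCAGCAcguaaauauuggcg

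Promoters of 3 class I and 2 class II genes are shown, to set beside the levels below the elements for which MHC promoters are known. Each window runs from 250 bases before to 50 after the annotated start (RefSeq, GRCm38.p6). They lie at chr17:34000298-34000597 (minus strand) for H2-K1, chr17:35262844-35263143 (plus strand) for H2-D1, chr17:35424600-35424899 (plus strand) for H2-Q6, chr17:34287774-34288073 (minus strand) for H2-Aa and chr17:34305617-34305916 (plus strand) for H2-Eb1. Capitals mark 2 motifs searched on both strands. The first is GGGATTCCC, the core of the kappa B element of class I promoters. The second is CTGATTGG, a sequence of the Y box, an element to which NF-Y binds.
H2-K1: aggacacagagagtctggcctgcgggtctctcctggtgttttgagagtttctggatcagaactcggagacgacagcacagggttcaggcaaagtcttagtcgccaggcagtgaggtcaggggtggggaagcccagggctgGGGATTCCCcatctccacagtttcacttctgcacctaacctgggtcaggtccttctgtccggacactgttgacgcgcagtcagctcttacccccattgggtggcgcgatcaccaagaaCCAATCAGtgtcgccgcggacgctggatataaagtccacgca
H2-D1: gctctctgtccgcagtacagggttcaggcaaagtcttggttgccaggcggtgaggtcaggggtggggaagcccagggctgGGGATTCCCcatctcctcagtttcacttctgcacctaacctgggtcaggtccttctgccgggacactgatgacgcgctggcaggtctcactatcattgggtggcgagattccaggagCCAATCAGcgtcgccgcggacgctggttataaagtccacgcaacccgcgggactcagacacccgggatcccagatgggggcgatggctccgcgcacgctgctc
H2-Q6: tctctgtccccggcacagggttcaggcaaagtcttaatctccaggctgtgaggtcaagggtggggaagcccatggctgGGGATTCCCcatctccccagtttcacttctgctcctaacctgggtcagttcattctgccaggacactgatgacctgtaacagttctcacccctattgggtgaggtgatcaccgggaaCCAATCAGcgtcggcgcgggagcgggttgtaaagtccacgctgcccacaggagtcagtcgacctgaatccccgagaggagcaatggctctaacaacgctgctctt
H2-Aa: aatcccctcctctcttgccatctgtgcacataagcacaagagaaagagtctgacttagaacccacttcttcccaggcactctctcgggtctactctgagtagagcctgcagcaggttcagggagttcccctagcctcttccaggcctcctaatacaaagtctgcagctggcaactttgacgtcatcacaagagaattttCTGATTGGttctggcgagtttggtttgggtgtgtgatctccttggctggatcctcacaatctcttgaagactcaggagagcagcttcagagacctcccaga
H2-Eb1: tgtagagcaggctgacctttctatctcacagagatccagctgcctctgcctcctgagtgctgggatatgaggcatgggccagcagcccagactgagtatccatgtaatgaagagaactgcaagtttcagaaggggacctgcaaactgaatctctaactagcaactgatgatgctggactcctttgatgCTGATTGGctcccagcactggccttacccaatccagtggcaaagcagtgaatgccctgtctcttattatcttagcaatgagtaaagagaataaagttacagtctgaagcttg

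The kappa B core was present in the H2-K1, H2-D1 and H2-Q6 windows and in neither class II window shown. It was found in 0.353% of all 32851 promoter windows and, among the 32 genes with H2- symbols that have a window, in 4 (H2-K1, H2-D1, H2-Q6 and H2-Q7). In the class I windows shown, CTGATTGG matched on the other strand, as CCAATCAG, and in the class II windows shown it matched as written. The class I match began 118 bases after the start of the kappa B core in H2-K1 and 117 bases after that start in H2-D1 and H2-Q6. Whether this match is the Y box of these class I promoters was not tested. On either strand, CTGATTGG was present in 4.1% of all windows and in 18 of the 32 H2- genes, including H2-Aa and H2-Eb1. RefSeq lists 2 starts for H2-K1, and the first is shown. Aligned without gaps at their best offset, the H2-K1 and H2-D1 windows were identical at 176 of 240 positions (73.3%). These matches describe letters in a window and are no measurement of binding.

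The labelled cell type was checked against marker genes. All 10 NK markers, among them Ncr1, Klrb1c, Eomes and Cd27, lay above background, which was taken as 4.13 on the log2 scale, the level under which the means of 95% of 1035 olfactory receptor probe sets lay. Of markers of other cells, 3 of 9 for B cells, 5 of 10 for T cells, 5 of 10 for dendritic cells and 2 of 10 for macrophages and monocytes lay above it. The T cell markers above it were Cd28, Lat, Cd3d, Cd3g and Cd3e, with means of 8.21, 7.86, 7.33, 6.84 and 6.34. Cd4, Cd8a, Cd8b1, Cd5 and Trat1 were not above it. Cd28 was higher in the knockout by 0.43 (SE 0.13, limma unadjusted p = 0.0156, adjusted p = 0.9995). It was the only listed marker with an unadjusted p under 0.05. The B cell gene Ms4a1 and the macrophage gene Adgre1 were not above background, with means of 3.00 and 2.61 over the 6 arrays. Whether other cells were present was not tested. The array medians lay between 4.23 and 4.33, and the number of arrays limits the precision.

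No H2- gene passed the threshold between knockout and Ctrl cells. Limma with Benjamini-Hochberg adjustment over all 35556 probe sets called 0 of 37 H2- probe sets at an adjusted p of 0.05, where it called 0% of the whole table. Without adjustment, limma gave p under 0.05 for 2 of the 37, H2-M1 and H2-Ab1, against 3.41% of the whole table. Both were lower in the knockout, where 1.55% of the table was lower at that threshold, and 0 H2- probe sets were higher at it, where 1.86% of the table was. Arrays of the genotypes did not overlap for 1 of the 37, H2-M1, against 8% of the table. Counts of 1 and 2 are too few to tell these shares from those of the table.

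Over all members, the medians of both classes lay near 0. The median difference, knockout minus Ctrl, was 0.06 on the log2 scale over the 27 class I probe sets, with 17 positive and 10 negative. Over the 9 class II probe sets it was -0.05, with 3 positive and 6 negative. With single arrays left out, the class I median lay between 0.00113 and 0.0423, lowest without Ctrl replicate 3, and the class II median between -0.16 and 0.04, positive without knockout replicate 1. Over the whole table the median was 0.00, with 49.7% positive. For the 13 class I probe sets above background the median was 0.09, with 10 positive and 3 negative. For the 4 class II probe sets above background it was -0.13, with 0 positive and 4 negative. The part of the table above background had a median of 0.01, with 51.4% positive. The size of the difference, without its sign, had a median of 0.10 over the 37 H2- probe sets and 0.13 over the table, and it was smaller than its standard error (SE) in 30 of the 37.

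**Figure D1:**
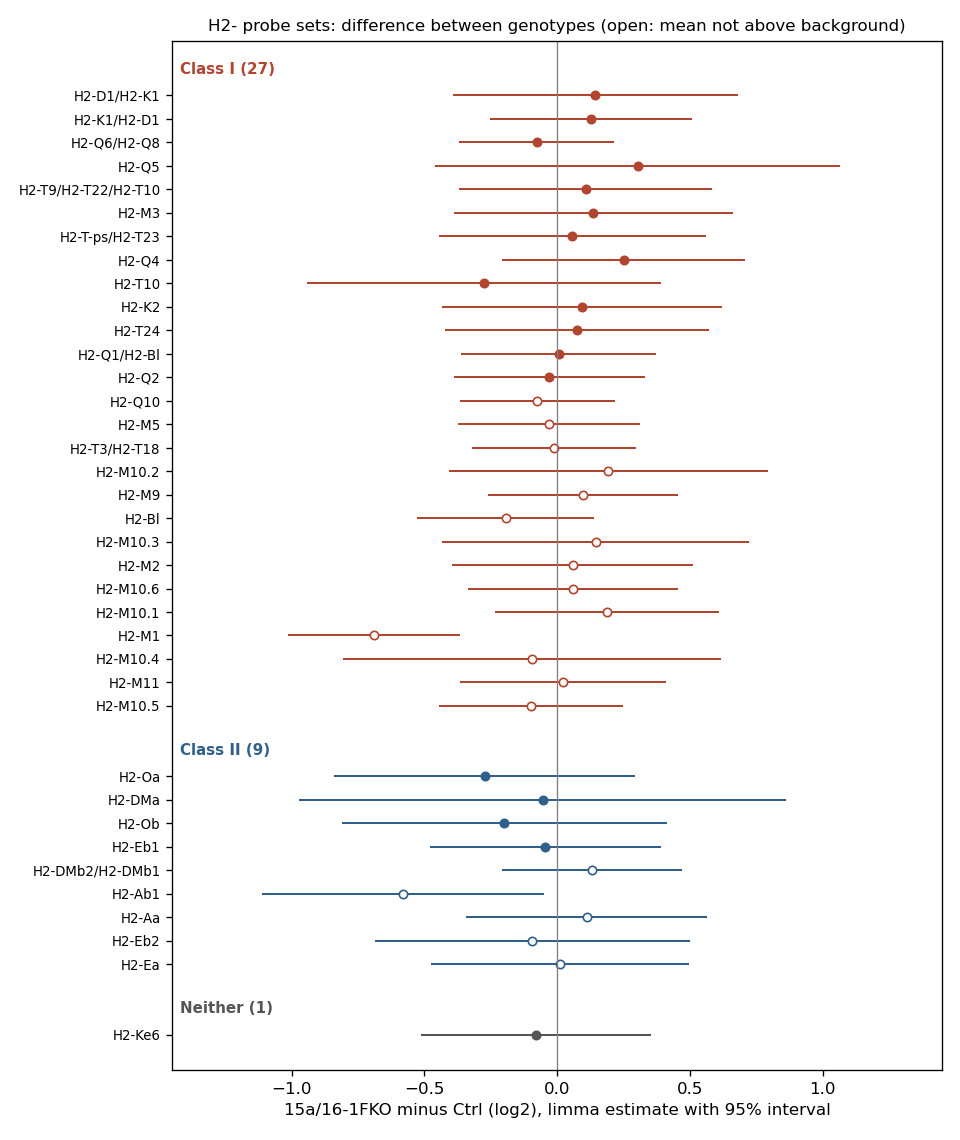
Difference between knockout (15a/16-1FKO) and Ctrl on the log2 scale for the 37 H2- probe sets, with 95% limma intervals from 3 arrays of each genotype; filled points have means above background and open points do not. Of the 37 intervals, those of H2-M1 and H2-Ab1 lie below 0 and the other 35 include 0.

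The classical class I genes H2-K1 and H2-D1 encode the heavy chains that present peptides to CD8 T cells and bind Ly49 receptors. Each of their 2 probe sets is annotated to H2-K1, H2-D1 and LOC547349 together, so neither can be read as 1 gene. The probe set listed first as H2-D1 stood at 10.82, 11.13 and 10.53 in knockout arrays, against 10.44, 11.01 and 10.60 in Ctrl arrays. The probe set listed first as H2-K1 stood at 10.49, 10.31 and 10.14 in knockout arrays, against 10.11, 10.38 and 10.06 in Ctrl arrays. Both probe sets overlapped between genotypes, and array 2 was the highest Ctrl array in each. The differences were 0.14 (SE 0.22, 95% interval -0.39 to 0.68) for the first and 0.13 (SE 0.16, 95% interval -0.25 to 0.50) for the second. H2-K2, a pseudogene next to H2-K1, averaged 6.23 ± 0.11 in knockout and 6.14 ± 0.39 in Ctrl arrays (SD, n = 3 each).

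The H2-Q genes encode nonclassical class I molecules, and H2-Q6 to H2-Q9 encode Qa-2, a lipid-anchored form. Of 6 probe sets in this series 5 lay above background. The shared H2-Q6/H2-Q8 probe set stood at 9.54, 9.46 and 9.42 in knockout arrays, against 9.61, 9.59 and 9.45 in Ctrl arrays. Its arrays spread little within a genotype, and its difference was -0.08 (SE 0.12, 95% interval -0.37 to 0.21). The H2-Q6/H2-Q8 probe set was lower in the knockout in all 3 pairs of arrays with the same replicate number, by -0.06, -0.14 and -0.03. For this and the pairs given below, whether the numbers pair the arrays was not established. The share of the table with all 3 pairs in the same direction is not given here.

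H2-Q4 and H2-Q5 had positive differences that did not pass. H2-Q4, a class I gene of the same cluster, stood at 6.71, 6.91 and 6.48 in knockout arrays, against 6.47, 6.70 and 6.19 in Ctrl arrays. It was higher in the knockout in all 3 pairs with the same number, by 0.24, 0.22 and 0.30, while the groups overlapped. Its difference was 0.25 (SE 0.19) with an unadjusted limma p of 0.228, the smallest among the 13 class I probe sets above background. The pseudogene H2-Q5 stood at 8.18, 8.33 and 7.58 in knockout arrays, against 7.62, 8.28 and 7.28 in Ctrl arrays. H2-Q5 was also higher in the knockout in all 3 pairs with the same number, by 0.56, 0.05 and 0.30. Its spread within a genotype was wide, and its difference of 0.30 (SE 0.31) had a 95% interval of -0.46 to 1.06. H2-Q2 differed by -0.03 (SE 0.15) and the shared H2-Q1/H2-Bl probe set by 0.01 (SE 0.15). H2-Q10, known as a secreted product of the liver, was not above background, at 3.80 ± 0.05 in knockout and 3.87 ± 0.10 in Ctrl arrays (SD, n = 3 each).

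The H2-T genes include H2-T23, which encodes Qa-1, the ligand of CD94/NKG2 receptors, and H2-T22, whose product is recognised by some gamma-delta T cells. They also include H2-T10, annotated as a pseudogene. The probe set shared by H2-T23 and H2-T-ps stood at 6.78, 6.88 and 6.64 in knockout arrays, against 6.65, 7.10 and 6.38 in Ctrl arrays. The knockout arrays lay within the range of the Ctrl arrays, and the difference was 0.06 (SE 0.21, 95% interval -0.44 to 0.56). H2-T24 differed by 0.07 (SE 0.21). The H2-T3/H2-T18 probe set, for the thymus leukaemia antigen that is also made by intestinal epithelium, was not above background, at 3.45 ± 0.03 in knockout and 3.46 ± 0.14 in Ctrl arrays (SD, n = 3 each).

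Probe sets that name the same gene did not always point the same way. The H2-T9/H2-T22/H2-T10 probe set stood at 7.46, 7.24 and 6.78 in knockout arrays, against 6.99, 7.12 and 7.06 in Ctrl arrays, with a difference of 0.11 (SE 0.20). The probe set of H2-T10 alone stood at 6.56, 5.51 and 6.24 in knockout arrays, against 6.46, 6.29 and 6.39 in Ctrl arrays, with a difference of -0.28 (SE 0.27). Knockout array 2 was low for H2-T10 alone and within the range of the other arrays for the shared probe set. H2-Bl likewise had a difference of -0.19 (SE 0.14) alone, not above background, and 0.01 in the probe set shared with H2-Q1. These 4 probe sets list transcripts in common with each other in these pairs, and no other H2- probe sets do.

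Of the H2-M class I genes only H2-M3, which presents N-formylated peptides of bacterial and mitochondrial origin, lay above background. It stood at 7.21, 6.74 and 7.26 in knockout arrays, against 7.02, 7.17 and 6.61 in Ctrl arrays. The groups overlapped, and the difference was 0.14 (SE 0.22, 95% interval -0.39 to 0.66). The other 11 H2-M probe sets had means between 2.14 and 3.66. They include the 6 of the H2-M10 family, known from vomeronasal neurons, whose differences lay between -0.10 and 0.19. Both H2-M10.1 and H2-M10.2 differed by 0.19, with SE of 0.17 and 0.25.

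H2-M1, another vomeronasal class I gene, had the smallest unadjusted p of the 37. It stood at 2.30, 2.05 and 2.21 in knockout arrays, against 2.97, 2.76 and 2.90 in Ctrl arrays. All 3 knockout arrays lay below all 3 Ctrl arrays, and every one of the 6 values lay below the background level. The difference was -0.69 (SE 0.13, 95% interval -1.01 to -0.37; limma unadjusted p = 0.00168, adjusted p = 0.9995). Whether a transcript of H2-M1 or background hybridisation gave these values was not tested. Of all 16930 probe sets not above background, 557 (3.29%) had an unadjusted limma p under 0.05, as 2 of the 19 such H2- probe sets did.

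**Figure D2:**
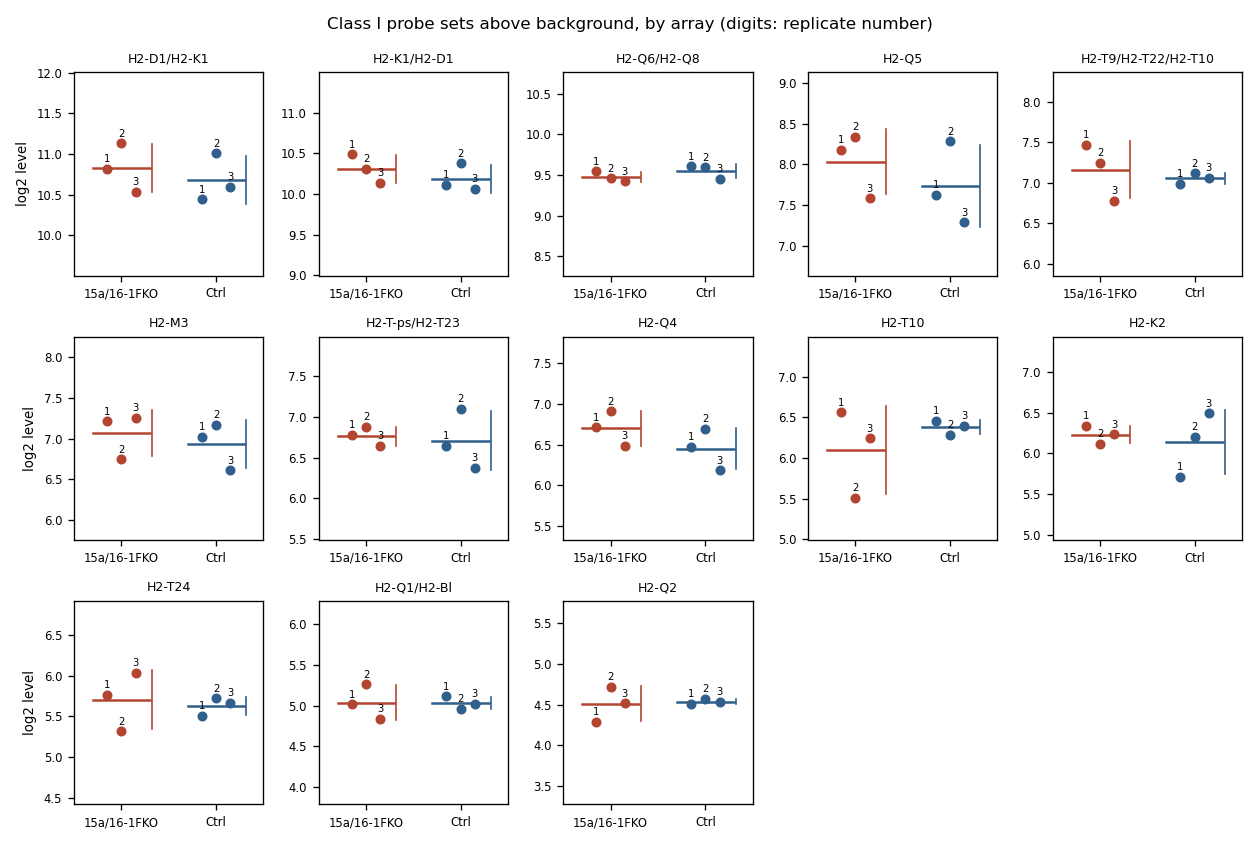
Log2 level of the 13 class I probe sets above background in each array (points, with the replicate number), with the mean (horizontal bar) and SD (vertical line) of 3 arrays; each panel spans the same number of log2 units, and the label LOC547349 is left out of panel titles. Knockout and Ctrl arrays overlap in all 13 panels.

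Averaged over these 13 class I probe sets, the level was 7.23 ± 0.09 in knockout and 7.15 ± 0.14 in Ctrl arrays (SD, n = 3 each). The arrays stood at 7.32, 7.23 and 7.13 in the knockout and at 7.09, 7.32 and 7.06 in Ctrl, so that Ctrl array 2 reached the level of knockout array 1. Ctrl array 3 was the lowest of the 6 arrays in 5 of the 13 probe sets and knockout array 2 the highest in 5.

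Class II genes ranged from background to moderate levels in these cells. Of 9 class II probe sets 4 lay above it, H2-Oa, H2-DMa, H2-Ob and H2-Eb1, with means between 4.41 and 5.89. In bulk samples a low level cannot be told apart between less RNA per cell and fewer cells that carry it. The chains of the I-A molecule, H2-Aa and H2-Ab1, and the shared H2-DMb2/H2-DMb1 probe set were not above background on their means over the 6 arrays. Nor was H2-Ea, the alpha chain of I-E, which mice of the b haplotype such as C57BL/6 are known not to make, at 2.70 ± 0.04 in knockout and 2.69 ± 0.36 in Ctrl arrays (SD, n = 3 each). H2-Eb2, a second E beta gene, averaged 3.29 ± 0.45 in knockout and 3.38 ± 0.16 in Ctrl arrays (SD, n = 3 each).

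H2-Ab1, the beta chain of I-A, was the class II gene with the smallest unadjusted p and did not pass by adjusted p. It stood at 3.47, 3.72 and 4.09 in knockout arrays, against 4.37, 4.06 and 4.60 in Ctrl arrays. All 3 knockout arrays and 1 Ctrl array lay under the background level, and knockout array 3 overlapped Ctrl array 2. The difference was -0.58 (SE 0.22, 95% interval -1.11 to -0.05; limma unadjusted p = 0.0356, adjusted p = 0.9995), and between arrays of the same number it was -0.90, -0.33 and -0.51. Without knockout replicate 1 the unadjusted p was 0.106 and the difference -0.44, and without Ctrl replicate 3 they were 0.109 and -0.45. Without knockout replicate 2 the unadjusted limma p of H2-Ab1 was 0.0841, and without Ctrl replicate 1 it was 0.0830.

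H2-Aa is the partner chain of H2-Ab1 in the I-A molecule. It stood at 3.82, 3.42 and 3.98 in knockout arrays, against 3.55, 3.52 and 3.81 in Ctrl arrays, all under the background level. Its difference was 0.11 (SE 0.19, 95% interval -0.34 to 0.56), and whether it differs from that of H2-Ab1 was not tested. H2-Eb1, the beta chain of I-E, stood at 4.05, 4.49 and 4.61 in knockout arrays, against 4.51, 4.32 and 4.46 in Ctrl arrays, with a difference of -0.05 (SE 0.18).

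The other class II genes encode the chaperones of peptide loading, H2-DM, which removes the CLIP fragment of the invariant chain, and H2-DO, which restrains H2-DM. H2-Oa, the alpha chain of H2-DO, stood at 5.48, 5.89 and 5.91 in knockout arrays, against 5.63, 6.07 and 6.39 in Ctrl arrays. Its beta chain H2-Ob stood at 4.01, 4.59 and 4.70 in knockout arrays, against 4.28, 4.68 and 4.94 in Ctrl arrays. Both chains were lower in the knockout in all 3 pairs of the same number and in both genotypes lowest in array 1, while the groups overlapped. The differences were -0.27 (SE 0.23) for H2-Oa and -0.20 (SE 0.25) for H2-Ob, with limma unadjusted p of 0.284 and 0.458. H2-DMa, the alpha chain of H2-DM, stood at 5.60, 6.05 and 5.70 in knockout arrays, against 4.97, 6.37 and 6.16 in Ctrl arrays. Ctrl array 1 was low for H2-DMa, and the difference of -0.05 had the widest SE of the 37 members, 0.38. The H2-DMb2/H2-DMb1 probe set differed by 0.13 (SE 0.14).

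**Figure D3:**
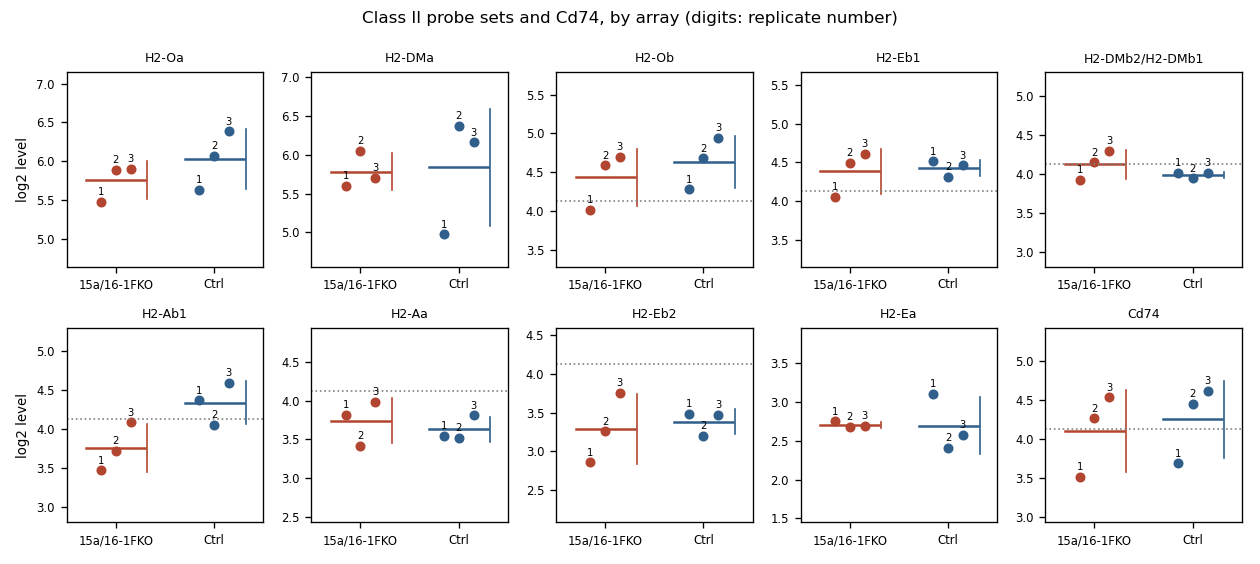
Log2 level of the 9 class II probe sets and of Cd74 in each array (points, with the replicate number), with mean (bar) and SD (vertical line) of 3 arrays per genotype; the dotted line is the background level of 4.13. H2-Ab1 lies under the line in all 3 knockout arrays and in 1 of 3 Ctrl arrays, and Cd74 is lowest in array 1 of both genotypes.

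In both genotypes, array 1 was the lowest of its genotype for H2-Oa, H2-Ob and H2-DMa. Knockout array 1, but not Ctrl array 1, was also the lowest of its genotype for H2-Ab1, H2-Eb1, H2-Eb2 and H2-DMb2/H2-DMb1. For H2-Aa and H2-Ea, array 1 was the lowest of neither genotype. Averaged over the 9 class II probe sets, array 1 was the lowest of each genotype. Array 1 was also the lowest of each genotype for the invariant chain Cd74, which escorts class II molecules. Cd74 stood at 3.51, 4.27 and 4.54 in knockout arrays, against 3.69, 4.45 and 4.62 in Ctrl arrays, with a difference of -0.15 (SE 0.35). The 9 measured B cell markers had a mean level per array between 3.49 and 3.75 in knockout and between 3.48 and 3.87 in Ctrl arrays. Ctrl array 3 had the highest mean of that list and was also highest for H2-Ab1, H2-Ob, H2-Oa and Cd74. In that list Cd79a, not above background, stood at 4.50 in Ctrl array 3 and between 2.17 and 3.65 in the other arrays. Knockout array 3 was highest for H2-Aa, H2-Eb1, H2-Eb2 and H2-DMb2/H2-DMb1, Ctrl array 2 for H2-DMa and Ctrl array 1 for H2-Ea. Single B cell markers differed in order, and Cd22 was highest in Ctrl array 3 while Cd79b was highest in knockout array 1. The 10 dendritic cell markers lay between 4.73 and 4.99 in knockout and between 4.72 and 4.93 in Ctrl arrays, and the 10 markers of macrophages and monocytes between 3.62 and 3.81 in knockout and between 3.70 and 3.83 in Ctrl arrays. Markers above background were Cd22, Cd79b and Pax5 for B cells, where Cd22 ranged from 4.29 to 5.51 on the 6 arrays and Cd79b and Pax5 had means of 4.74 and 4.34. For dendritic cells they were Itgax, Cst3, Batf3, Ccr7 and Zbtb46, with means between 4.18 and 9.17, and for macrophages Cd68 and Lyz2, at 5.96 and 5.06. Markers not above background included Ms4a1, Fcer2a and Cr2 for B cells, Clec9a, Xcr1 and Flt3 for dendritic cells and Adgre1, Csf1r and C1qa for macrophages. The part of other cells in the class II levels was not tested.

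H2-Ke6, the steroid dehydrogenase in the complex, averaged 6.91 ± 0.15 in knockout and 6.99 ± 0.27 in Ctrl arrays (SD, n = 3 each), with a difference of -0.08 (SE 0.18).

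Genes that work with MHC molecules did not pass the threshold either. Of 18 genes listed for the class I pathway 17 were measured, by 36 probe sets, and 0 rose and 0 fell by adjusted p. All 36 probe sets lay above background, and 0 had an unadjusted limma p under 0.05, against the 3.41% of the table. With the probe set of highest mean for each gene, the difference was positive for 5 genes and negative for 12, and its median was -0.07. Of the whole table, 49.7% was positive. B2m, the light chain of every classical class I molecule, stood at 11.94, 11.77 and 11.83 in knockout arrays, against 11.96, 11.58 and 11.82 in Ctrl arrays. Its groups overlapped, and the difference was 0.06 (SE 0.15, 95% interval -0.29 to 0.41).

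The peptide transporter subunits Tap1 and Tap2 differed by 0.04 (SE 0.18) and 0.17 (SE 0.23), and tapasin (Tapbp), which bridges transporter and heavy chain, by -0.23 (SE 0.15). The immunoproteasome subunits Psmb8, Psmb9 and Psmb10 differed by -0.11 (SE 0.15), 0.01 (SE 0.27) and -0.21 (SE 0.25). Irf1, an activator of class I transcription, stood at 7.75, 7.75 and 7.53 in knockout arrays, against 7.82, 8.25 and 7.79 in Ctrl arrays, without overlap. Its difference was -0.28 (SE 0.17, limma unadjusted p = 0.155), and a second probe set of Irf1 differed by -0.20 (SE 0.15). Of the 36 probe sets 3 (8.33%) did not overlap, against the 8% of the table, and the other two were of Nlrc5, with differences of 0.32 and -0.18. Nlrc5, the coactivator of class I genes, was covered by 19 probe sets that share the gene and are no replicates. Of them 4 had positive and 15 negative differences, between -0.31 and 0.37, and the smallest unadjusted limma p was 0.101.

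Of the 11 measured genes of the class II pathway 0 rose and 0 fell by adjusted p. At an unadjusted limma p under 0.05 there were 0, against the 3.41% of the table. Differences were positive for 1 gene and negative for 10, where 49.7% of the table was positive. The median was -0.16, and 7 of the 11 lay above background. Whether these signs differ from those of the table was not tested. Cd83, a surface molecule that stabilises class II molecules by opposing Marchf1, stood at 4.30, 4.38 and 4.48 in knockout arrays, against 4.63, 4.80 and 4.56 in Ctrl arrays. These arrays did not overlap, as in 1 of the 11 probe sets (9.09%) against 8% of the table, and the difference was -0.28 (SE 0.13, limma unadjusted p = 0.0728). Cathepsin S (Ctss), which degrades the invariant chain, differed by -0.46 (SE 0.27). The gene with the positive difference was Rfxank, a subunit of the RFX complex that binds class II promoters, at 0.23 (SE 0.15). Ciita, the master coactivator of class II genes, was not above background and differed by -0.09 (SE 0.16).

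**Figure D4:**
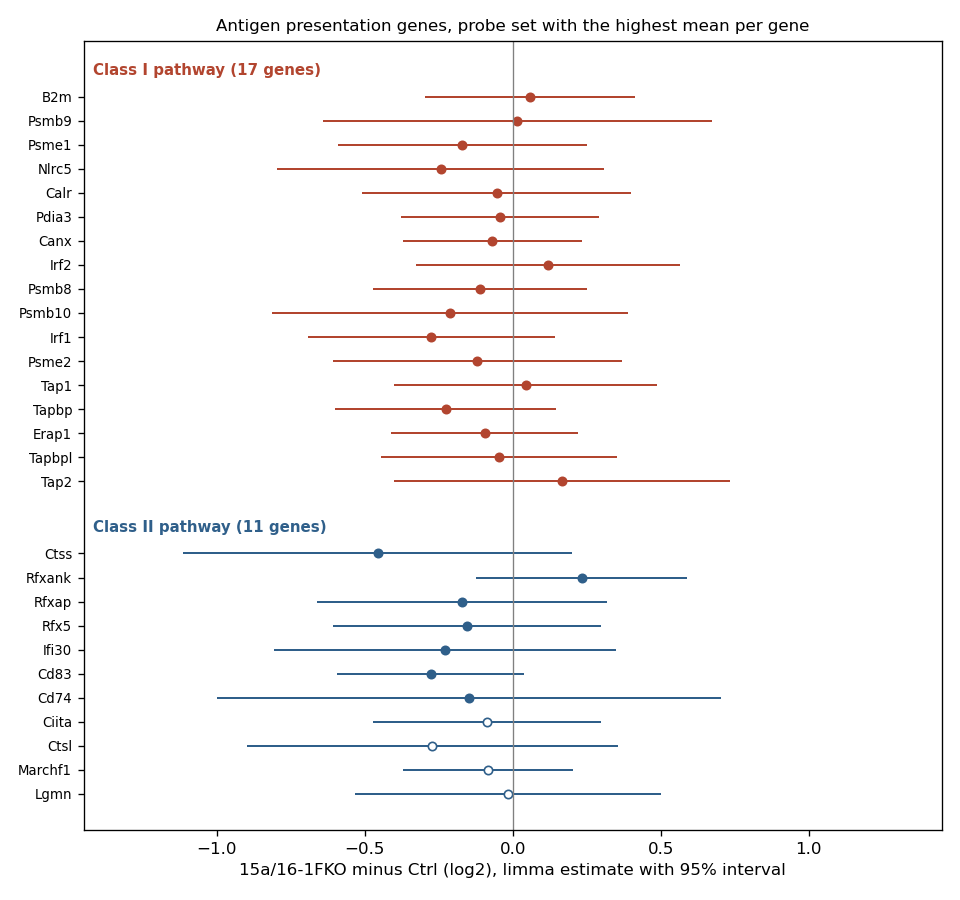
Difference between knockout and Ctrl on the log2 scale for 17 class I and 11 class II pathway genes, each by its probe set of highest mean, with 95% limma intervals from 3 arrays of each genotype; open points have means not above background. All 28 intervals include 0.

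Across the 18 H2- probe sets above background, 13 of class I, 4 of class II and H2-Ke6, each 95% interval included 0. Their differences lay between -0.28 and 0.30, and their interval bounds reached -0.97 at the low end and 1.06 at the high end.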

How the data were processed

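Log2 values of 35556 probe sets on 6 arrays were deposited as 1 table (range 0.74 to 13.6). Per the submitters' processing notes, RMA and Partek 6.6 were used, with no step assigned to either and the genome build not given in the sources used here. RMA compresses differences of dim probe sets. Per the annotation table, 21789 probe sets had 1 gene symbol, 1621 several and 12146 were not listed. H2- probe sets with several symbols were kept.

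The log2 values were used as deposited, without a filter. Limma 3.58.1 in R 4.3.3 (lmFit, eBayes, two-sided) compared 15a/16-1FKO with Ctrl across all 35556 probe sets, with Benjamini-Hochberg adjustment and a threshold of 0.05. Differences are knockout minus Ctrl. Limma was tested on 10 simulated tables with 200 changed probe sets each and the spread of these arrays. The simulated noise was independent between probe sets and every change was upward, so shifts shared by many probe sets of an array were not simulated. At an adjusted p of 0.05 limma called 0 of 670 changes of 0.5 on the log2 scale. It called 18.1% of changes of 1 and 64.1% of changes of 2, so smaller changes can go without a call. Among unchanged probe sets it made a mean of 4.1 calls per table. Python 3.11.15 made the tables. Lists were described by counts and medians and not tested.

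The members, lists and background level were chosen with earlier results of these data known. Genes were named by rule: every H2- probe set above background, of class II or with several symbols, the 5 others with the smallest p and those next to the unadjusted threshold, 6 set pathway genes and the 4 pathway probe sets with the smallest p. A few other members, pathway and marker genes were named after their values were seen. Some listed genes were not analysed here.

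Replicate numbers come from the sample titles. Deviations of same-numbered arrays from their genotype means correlated at 0.156, 0.170 and 0.198 over all probe sets. Eif2s3y stood at 7.88 in knockout array 1 and 2.33 in Ctrl array 1. Whether the numbers pair the arrays was not tested further. The main fit did not pair them, and a replicate block was an alternative. Other alternatives were median centring, a second quantile normalization, annotated probe sets only, 1 probe set per gene, a brightness filter, a trended and robust prior, array weights, a covariate for sex-linked transcripts, and each array left out in turn. The class medians were also taken over members with 1 symbol, over members above background, and, chosen after seeing the data, with H2-Ke6 counted in class I.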

Additional observations from a re-analysis of the deposited data

How the results depend on the processing

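In each of the 15 other fits 0 H2- probe sets and 0 pathway probe sets passed an adjusted p of 0.05 by limma, and the lowest adjusted p of any H2- probe set was 0.994. With the replicate block, 2 H2- probe sets again had an unadjusted limma p under 0.05, against 4.26% of the table. The class I median was then 0.06 and the class II median -0.05, and the block changed no call. Restricting the table to probe sets at or above the median brightness left 18 H2- probe sets. Of these 0 had an unadjusted limma p under 0.05, against 3.22% of that table. H2-M1 and H2-Ab1 are dimmer than that limit. Leaving out single arrays gave 1 to 2 H2- probe sets with an unadjusted limma p under 0.05, against 3.03% to 4.20% of the table. For the pathway lists it gave 0 to 1 probe set. The class I median then lay between 0.00113 (without Ctrl replicate 3) and 0.0423 (without 15a/16-1FKO replicate 3). The class II median lay between -0.16 and 0.04 (positive without 15a/16-1FKO replicate 1). H2-M1 kept an unadjusted p under 0.05 in each of its 14 other fits (differences -0.75 to -0.62). H2-Ab1 did so in 10 of 14 (differences -0.75 to -0.44) and missed it without knockout replicates 1 or 2 or Ctrl replicates 1 or 3. Signs held in every fit for 14 H2- probe sets and changed in at least 1 fit for the other 23. Without detection calls, values under 4.13 cannot be separated from background.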

Other observations

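Class I-like genes outside the complex, a list added after the data were seen, also held no gene past the threshold. Of 18 such genes 10 were measured, 4 of them above background. An unadjusted limma p under 0.05 was found for 0, against 3.41% of the table. Cd1d1, which presents lipids to NKT cells, stood at 4.54, 4.70 and 4.87 in knockout arrays, against 5.13, 5.04 and 4.88 in Ctrl arrays. The difference was -0.31 (SE 0.14). Arrays did not overlap for 2 of the 10 genes, against 8% of the whole table: Cd1d1, lower in the knockout, and Mill1, higher by 0.14 (SE 0.13). Mr1, which presents vitamin B metabolites to MAIT cells, differed by 0.10 (SE 0.15). H60b, a ligand of the NK receptor NKG2D, varied widely within each genotype, at 7.76, 5.66 and 7.03 in knockout arrays, against 7.55, 6.11 and 6.54 in Ctrl arrays.

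H2-M10.5 had the identical value of 2.09 in all 3 knockout arrays, as 6 of the 35556 probe sets did, each with a mean not above background. Such ties across all 3 Ctrl arrays occurred in 1 probe set.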
